A study of Rattus norvegicus with 8 samples.

Results

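The genes described here are 5 bone morphogenetic protein (BMP) ligands (*Bmp2*, *Bmp4*, *Bmp5*, *Bmp6* and *Bmp7*) and 5 secreted proteins that bind BMPs or related ligands outside the cell (*Nog*, *Chrd*, *Grem1*, *Fst* and *Bmper*). Their probes were found by matching the RefSeq accession that the array design gives for each probe to these rat symbols, which selected 13 probes for the 10 genes among 45598 probes. RNA came from the ipsilateral *substantia nigra* (SN) of female Sprague–Dawley rats that were 3 months old at surgery and were killed 20 weeks later. Rats of the AAV-αSyn group received into the SN of 1 side an adeno-associated viral vector carrying wild-type human α-synuclein, and rats of the AAV-Null group received a vector without this transgene. The titre is stated in the methods as 5.2e+10 vector genomes per µL for AAV-αSyn and 5.3e+09 for AAV-Null, which nothing in the files can check. If the titres are as stated, the transgene and the amount of vector cannot be told apart in this comparison. The labels name no deletion or further treatment in either group, and the promoter that drove the transgene is not given in the sources used here. Each group has 4 arrays (n = 4), each hybridised with the RNA of 1 sample, and all 8 lie on 1 slide read in 1 scan. The labels number the samples within each group without stating the animal behind each, so the p-values measure the spread between these samples.

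BMPs are secreted dimers that bind serine/threonine kinase receptors, which phosphorylate SMAD1, SMAD5 and SMAD9 so that these enter the nucleus with SMAD4 and act on target genes such as the *Id* family. Noggin, chordin and gremlin bind BMPs and keep them from their receptors, follistatin binds activins most tightly and some BMPs less so, and BMPER is a chordin-related protein that can either inhibit or promote BMP activity. In the midbrain, BMPs are known to promote neurite growth and survival of dopaminergic (DA) neurons. In bulk tissue, fewer cells of a type and less RNA per cell cannot be told apart.

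Genes for BMP antagonists are themselves known targets of BMP signalling in several tissues, so the sequence before their start sites was examined first. The RefSeq promoter table (assembly GRCr8, 250 bases before to 50 bases after the start) holds 7 of the 10 genes: *Bmp4*, *Bmp5*, *Bmp6*, *Nog*, *Chrd*, *Grem1* and *Bmper*. The motif GGCGCC, a GC-rich element known from BMP-responsive promoters and equal to its own reverse complement, occurred 1 time in each of *Nog*, *Chrd*, *Grem1* and *Bmper* and 0 times in *Bmp4*, *Bmp5* and *Bmp6*. It occurred in 11% of the 33469 promoters of the same length. GC content moves with this motif: it was 73% in *Nog*, 78.7% in *Chrd*, and 70% in both *Grem1* and *Bmper*, against 65% in *Bmp4*, 59.3% in *Bmp6*, 35.3% in *Bmp5* and a median of 51.7% over all promoters, and the motif occurred in 47.1% of the 2769 promoters with a GC content of at least 70%. The SMAD-binding palindrome GTCTAGAC, present in 0.197% of promoters, and the sequence TATAAA, searched on both strands and present in 14.2%, occurred in 0 of the 7. The 4 promoters with GGCGCC are shown 5′ to 3′ because they are the antagonist genes that share it, with the motif in capitals:
*Nog* promoter, chr10:74627452-74627751, minus strand: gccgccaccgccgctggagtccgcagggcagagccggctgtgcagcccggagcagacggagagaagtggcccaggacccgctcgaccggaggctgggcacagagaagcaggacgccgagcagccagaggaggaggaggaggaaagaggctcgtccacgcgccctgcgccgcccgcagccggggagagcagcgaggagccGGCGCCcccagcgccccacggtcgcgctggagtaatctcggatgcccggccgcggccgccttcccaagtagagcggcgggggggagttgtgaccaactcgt
*Chrd* promoter, chr11:93685051-93685350, minus strand: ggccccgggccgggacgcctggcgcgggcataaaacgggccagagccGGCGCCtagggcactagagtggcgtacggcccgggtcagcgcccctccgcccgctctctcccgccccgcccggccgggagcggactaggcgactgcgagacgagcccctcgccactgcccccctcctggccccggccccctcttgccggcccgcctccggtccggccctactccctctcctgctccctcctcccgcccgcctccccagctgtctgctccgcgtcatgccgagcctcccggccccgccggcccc
*Grem1* promoter, chr3:120978270-120978569, minus strand: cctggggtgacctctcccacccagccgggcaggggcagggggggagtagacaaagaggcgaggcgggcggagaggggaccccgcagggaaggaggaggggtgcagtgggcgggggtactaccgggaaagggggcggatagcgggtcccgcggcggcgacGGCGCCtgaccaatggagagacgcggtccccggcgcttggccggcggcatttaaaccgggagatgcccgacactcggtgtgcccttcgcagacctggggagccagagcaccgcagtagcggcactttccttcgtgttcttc
*Bmper* promoter, chr8:30007916-30008215, plus strand: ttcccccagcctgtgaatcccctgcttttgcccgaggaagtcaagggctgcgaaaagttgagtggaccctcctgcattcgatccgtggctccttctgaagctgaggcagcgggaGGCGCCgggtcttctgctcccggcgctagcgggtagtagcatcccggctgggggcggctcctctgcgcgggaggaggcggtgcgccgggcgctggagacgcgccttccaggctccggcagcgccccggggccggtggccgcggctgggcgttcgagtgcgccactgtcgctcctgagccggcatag

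Of the 13 probes, 12 were above background on all 8 arrays, against 65% of all probes on the array. By gene, the brightest probe of each of the 10 genes was above background on all 8, as was that of 75.5% of the 16678 genes with a named probe. The scanner software calls each spot well above background or not, and a probe was taken as above background where this held for 0.5 or more of its spots. The exception among the 13, 1 of the 2 *Grem1* probes (A_44_P1156165), met it on 0 arrays and was not tested. Testing was limited to the 74.2% of all probes that met it on 1 array or more. Transcripts of all 5 ligands and all 5 antagonists were thus measurable in the SN samples of both groups. Markers of DA neurons, a main cell type of the SN, were present: 7 of 7 (*Th*, *Slc6a3*, *Slc18a2*, *Ddc*, *Nr4a2*, *Pitx3* and *Aldh1a1*) were above background on all 8 arrays. These markers do not show that the samples held the SN alone. Values below are log2 intensities after quantile normalization between arrays, and a difference is AAV-αSyn minus AAV-Null on that scale.

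None of the 12 probes passed the test between the groups, so no ligand or antagonist gene is called higher or lower in either group. By limma's moderated test, 0 of 12 had an unadjusted p under 0.05, against 5.64% of the 33853 probes tested (3.31% higher and 2.32% lower in the AAV-αSyn group), and 0 had an adjusted p under 0.05, against 0.0148%. The groups of arrays overlapped for all 12, while they did not overlap for 3.83% of probes. With 12 probes, these counts lie near the background shares. The median log2 difference was −0.06 over the 5 ligands and 0.13 over the 5 antagonists, beside 0.00825 over all probes tested, and 5 of the 10 genes had a positive and 5 a negative difference. The adjusted p-values from limma lay between 0.947 and 0.995.

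The intervals say what sizes of difference these arrays leave possible. For 10 of the 12 probes, the 95% interval of the log2 difference excluded a change of 1 in either direction, that is, a 2-fold change. The exceptions were *Bmp7* (−1.23 to 0.59) and 1 of the 2 *Fst* probes, A_42_P585426 (−1 to 0.9). The width differed between genes: the narrowest interval was that of *Bmp2* probe A_44_P1013851 (−0.35 to 0.22).

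**Figure D1:**
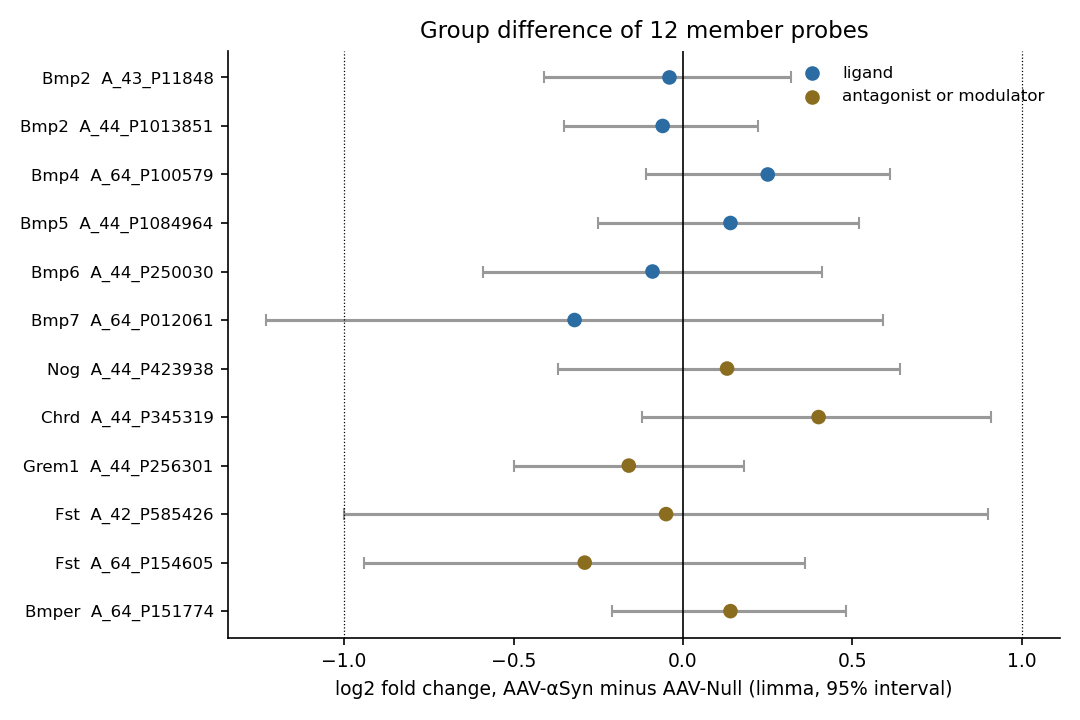
Log2 fold change (AAV-αSyn minus AAV-Null, horizontal axis) with its 95% interval from limma for the 12 probes tested, named on the vertical axis by gene and probe. Every interval includes 0 (solid line), and those of *Bmp7* and of *Fst* probe A_42_P585426 reach a log2 change of −1 (dotted line).

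Among the ligands, *Bmp4*, which in the adult brain is known from vascular and glial cells, had the smallest p. Its probe (A_64_P100579, NM_012827) read 10.64, 11.12, 10.62 and 10.93 on AAV-Null replicates 1 to 4. It read 11.20, 11.08, 11.28 and 10.74 on AAV-αSyn replicates 1 to 4. AAV-αSyn replicates 1 and 3 were above all AAV-Null arrays, while AAV-αSyn replicate 4 was below AAV-Null replicates 2 and 4, so the groups overlapped. The means were 10.83 ± 0.24 (SD, n = 4) and 11.08 ± 0.236 (SD, n = 4). The log2 difference was 0.25 (SE 0.156, 95% interval −0.11 to 0.61; limma p = 0.15, adjusted p = 0.961), and the exact permutation test over the 70 splits of the arrays gave p = 0.2, two-sided. With the side of the slide as a block it was again 0.25, with an unadjusted limma p of 0.04 and an adjusted p of 0.958. In that fit 5.16% of all probes tested had an unadjusted p under 0.05. Without AAV-αSyn replicate 4 the difference was 0.36, with an unadjusted limma p of 0.0401 and an adjusted p of 1, and with array quality weights over all 8 arrays it was 0.09, with an unadjusted limma p of 0.561.

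*Bmp7*, a ligand studied for the protection of DA neurons, had the largest between-array SD among the brightest probes of the 10 genes. Its probe (A_64_P012061, NM_001191856) read 6.07, 7.46, 5.77 and 6.01 on the AAV-Null arrays and 6.60, 5.64, 5.58 and 6.23 on the AAV-αSyn arrays, in replicate order. AAV-Null replicate 2 stood above every other array, and the highest array exceeded the lowest by 1.89 on the log2 scale, or 3.7-fold. This between-array SD of 0.62 was higher than that of 96.5% of the 3319 probes whose mean lies within 0.5 of it. The group means were 6.33 ± 0.767 (SD, n = 4) and 6.01 ± 0.491 (SD, n = 4). Between the groups it differed by −0.32 on the log2 scale (SE 0.396; exact permutation p = 0.6, two-sided). Its direction rested on 1 array, since without AAV-Null replicate 2 it was 0.06.

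*Bmp6*, which belongs to the same ligand subgroup as *Bmp5* and *Bmp7*, was also highest on AAV-Null replicate 2 (A_44_P250030), at 6.37 against 5.34 to 5.94 on the other 7 arrays. Its log2 difference was −0.09 (SE 0.218, 95% interval −0.59 to 0.41) and became 0.11 without that array. *Bmp5*, in contrast, was lowest on AAV-Null replicate 2, at 8.26 against 8.46 to 9.02 elsewhere (A_44_P1084964). Its log2 difference was 0.14 (SE 0.168, 95% interval −0.25 to 0.52), which became 0.01 without AAV-Null replicate 2, 0.06 without AAV-αSyn replicate 2 and 0.25 without AAV-αSyn replicate 4. *Bmp2*, which with *Bmp4* forms the other ligand subgroup, has 2 probes above background. Its brighter probe (A_44_P1013851) ranged from 8.85 to 9.12 in the AAV-Null group and from 8.66 to 9.12 in the AAV-αSyn group, a log2 difference of −0.06 (SE 0.124, 95% interval −0.35 to 0.22) that was 0.03 without AAV-αSyn replicate 1. The other *Bmp2* probe (A_43_P11848) gave −0.04 (SE 0.16, 95% interval −0.41 to 0.32). Both probes were lowest on AAV-αSyn replicate 1.

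**Figure D2:**
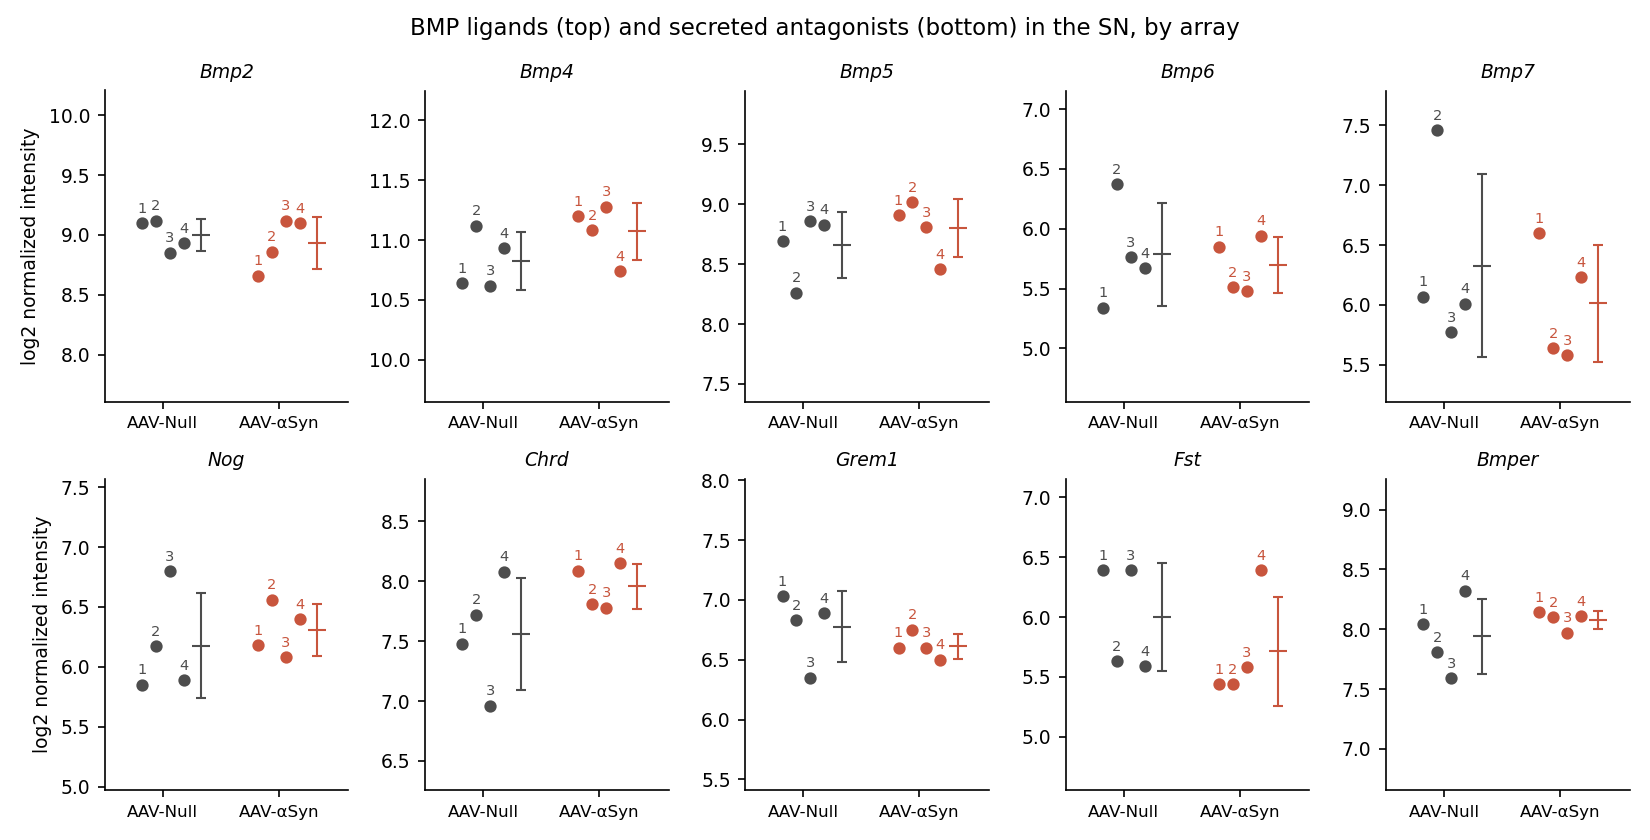
Log2 normalized intensity (vertical axis) of the brightest probe of each gene on the 4 AAV-Null and 4 AAV-αSyn arrays, with the replicate number above each point and the mean ± SD to the right of each group. Each panel spans the same log2 range but has its own level, and the groups overlap in every panel; *Bmp7* and *Bmp6* are highest on AAV-Null replicate 2, and *Fst* is high on AAV-Null replicates 1 and 3 and AAV-αSyn replicate 4.

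Among the antagonists, *Chrd* (A_44_P345319, NM_057134), which encodes chordin, had the largest difference of the 10 genes. It read 7.48, 7.72, 6.96 and 8.08 on the AAV-Null arrays and 8.09, 7.81, 7.78 and 8.15 on the AAV-αSyn arrays. All AAV-αSyn arrays exceeded AAV-Null replicates 1, 2 and 3, and AAV-Null replicate 4 lay among the AAV-αSyn arrays. The means were 7.56 ± 0.469 (SD, n = 4) and 7.96 ± 0.187 (SD, n = 4), a fold of 1.32. The log2 difference was 0.40 (SE 0.225, 95% interval −0.12 to 0.91; limma p = 0.116, adjusted p = 0.947; exact permutation test, two-sided, p = 0.114). Without AAV-Null replicate 4 it was 0.57, with an unadjusted limma p of 0.0217 and an adjusted p of 0.555, and without AAV-Null replicate 3 it was 0.20, with an unadjusted limma p of 0.272. On the side of the slide that held AAV-Null replicates 2 and 4 with AAV-αSyn replicates 1 and 3 it was 0.03, and on the other side it was 0.76.

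*Chrd* was compared with how bright each array was before normalization, and the relation did not pass adjustment. The 75th percentile of log2 intensity was 11.88, 11.86, 11.76 and 12 on the AAV-Null arrays and 12.03, 11.78, 11.84 and 12.06 on the AAV-αSyn arrays. Across the 8 arrays, Pearson's r with *Chrd* was 0.786 (exact permutation p = 0.0133, 0.133 after Benjamini–Hochberg adjustment over the 10 genes) and Spearman's rho was 0.762 (exact permutation p = 0.0368, adjusted 0.229). Without AAV-αSyn replicates 1 and 4, the farthest from the median brightness, r was 0.671. For *Bmper*, r was 0.668 (exact permutation p = 0.0653, adjusted 0.326) and rho was 0.738 (exact permutation p = 0.0458, adjusted 0.229), and r was 0.734 without the same 2 arrays. The part of brightness in the group differences was not tested. *Chrd* and *Bmper* followed a pattern that many genes share: among 12590 other genes above background on all 8 arrays, 2.69% correlated with *Chrd* and 3.32% with *Bmper* at r of at least 0.9, against 0.0159% to 0.54% for the other 8 genes. The 3 genes most like *Chrd* over the 8 arrays were *Oxnad1* (r = 0.995), *Git2* (r = 0.99) and *Lrwd1* (r = 0.989), and the 3 most like *Bmp4* were *Nusap1* (r = 0.943), *Shc1* (r = 0.937) and *Cyp27b1* (r = 0.883). Values of 1 array share their library and scan, so these coefficients are a description.

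*Bmper* (A_64_P151774) ranged from 7.59 to 8.32 in the AAV-Null group and from 7.97 to 8.14 in the AAV-αSyn group. As for *Chrd*, AAV-Null replicate 3 was the lowest array. Its log2 difference was 0.14 (SE 0.15, 95% interval −0.21 to 0.48), which became 0.02 without AAV-Null replicate 3 and 0.26 without AAV-Null replicate 4. *Chrd* and *Bmper* correlated with each other (r = 0.843, exact permutation p = 0.0105; rho = 0.833, exact permutation p = 0.0154), and r was 0.619 without AAV-Null replicate 3 and AAV-αSyn replicate 4. The adjusted p of r over the 45 pairs of genes was 0.189, the smallest of that family. The same adjusted p held for *Bmp4* with *Fst*, whose unadjusted p was smaller, and for *Bmp6* with *Bmp7*.

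*Nog* (A_44_P423938), which encodes noggin, read 5.85, 6.17, 6.80 and 5.89 on the AAV-Null arrays and 6.18, 6.56, 6.08 and 6.40 on the AAV-αSyn arrays. AAV-Null replicate 3 was the highest of all, and the other 3 AAV-Null arrays were below 3 of the 4 AAV-αSyn arrays. It differed by 0.13 between the groups (SE 0.219, 95% interval −0.37 to 0.64), and it was 0.34 without AAV-Null replicate 3, with an unadjusted limma p of 0.0484 and an adjusted p of 0.612. It was 0.02 without AAV-Null replicate 1, 0.04 without AAV-Null replicate 4, 0.05 without AAV-αSyn replicate 2 and 0.21 without AAV-αSyn replicate 3. *Grem1* (A_44_P256301), which encodes gremlin 1, read 7.03, 6.83, 6.35 and 6.89 on the AAV-Null arrays and 6.60, 6.75, 6.60 and 6.50 on the AAV-αSyn arrays. Here AAV-Null replicate 3 was the lowest of all and the other 3 AAV-Null arrays were above every AAV-αSyn array. The log2 difference was −0.16 (SE 0.147, 95% interval −0.5 to 0.18), and without AAV-Null replicate 3 it was −0.30, with an unadjusted limma p of 0.00984 and an adjusted p of 0.532. Without AAV-Null replicate 1 it was −0.08, with an unadjusted limma p of 0.623. The marker list with the largest coefficient for *Grem1* was that of endothelial cells (r = −0.807, exact permutation p = 0.0157, adjusted 0.671; rho = −0.738, exact permutation p = 0.0458), with r = −0.801 without AAV-Null replicates 1 and 3. Both *Nog* and *Grem1* also correlated with the markers of serotonergic raphe neurons, a cell type outside the SN, with r = 0.78 for *Nog* and r = −0.79 for *Grem1* (exact permutation p = 0.0244 and 0.0224, both 0.671 after adjustment over 110 pairs of gene and marker list; rho 0.786 and −0.786, exact permutation p = 0.0279 for both). Without the 2 farthest arrays, r was 0.81 and −0.709. No such pair passed the adjustment, and the part of these cells in either gene was not tested.

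*Fst*, which encodes follistatin, was high on some arrays and low on others in both groups. Its brighter probe (A_64_P154605), printed as 10 spots on each array, read 6.39, 5.63, 6.39 and 5.59 on the AAV-Null arrays and 5.44, 5.44, 5.58 and 6.39 on the AAV-αSyn arrays. AAV-Null replicates 1 and 3 and AAV-αSyn replicate 4 were at the higher level, and the other 5 arrays at the lower one. The 3 higher arrays lay on the same side of the slide, where AAV-αSyn replicate 2 was the only other array. The SD of the 10 spots within an array was between 0.0731 and 0.187 (median 0.126), and the SD between the array means was 0.447. Spots of 1 array share their sample and hybridisation, so the former covers error within an array only. The lowest single spot on the 3 higher arrays was 6.18, and the highest on the 5 lower arrays was 5.88. The other probe (A_42_P585426, 2 spots) was 5.85, 4.36, 5.71 and 4.53 on the AAV-Null arrays and 4.65, 5.09, 4.67 and 5.84 on the AAV-αSyn arrays, with the same 3 arrays highest and AAV-αSyn replicate 2 between them and the rest. The log2 difference was −0.29 (SE 0.282, 95% interval −0.94 to 0.36; exact permutation p = 0.2, two-sided) for the brighter probe and −0.05 (SE 0.414) for the other. That of the brighter probe was −0.51 without AAV-αSyn replicate 4 and −0.16 without AAV-Null replicate 1 or 3, and the mean over both probes gave −0.17.

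The 3 arrays with high *Fst* had the 3 lowest *Bmp4* values, 10.64, 10.62 and 10.74, against 10.93 to 11.28 on the other 5. Of the 45 pairs of genes, *Fst* and *Bmp4* had the smallest exact permutation p for Pearson's r, and no pair passed the adjustment. The 3 arrays were also the highest in *Ucn*, which encodes the peptide urocortin, at 13.06, 13.36 and 12.93 against 9.23 to 11.22. The same held for *Cartpt*, the precursor of the CART peptide, at 14.91, 14.46 and 14.63 against 11.31 to 13.23. *Ucn* and *Cartpt* were chosen after their values were seen, from the 3 genes whose pattern was most like that of *Fst*, and both are known from the peptide neurons of the Edinger–Westphal nucleus near the midline of the midbrain. Because the arrays form 2 clusters at the brighter *Fst* probe, no coefficient over all 8 is given. Whether these neurons or the side of the slide take part in the level of *Fst* or *Bmp4* was not tested.

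**Figure D3:**
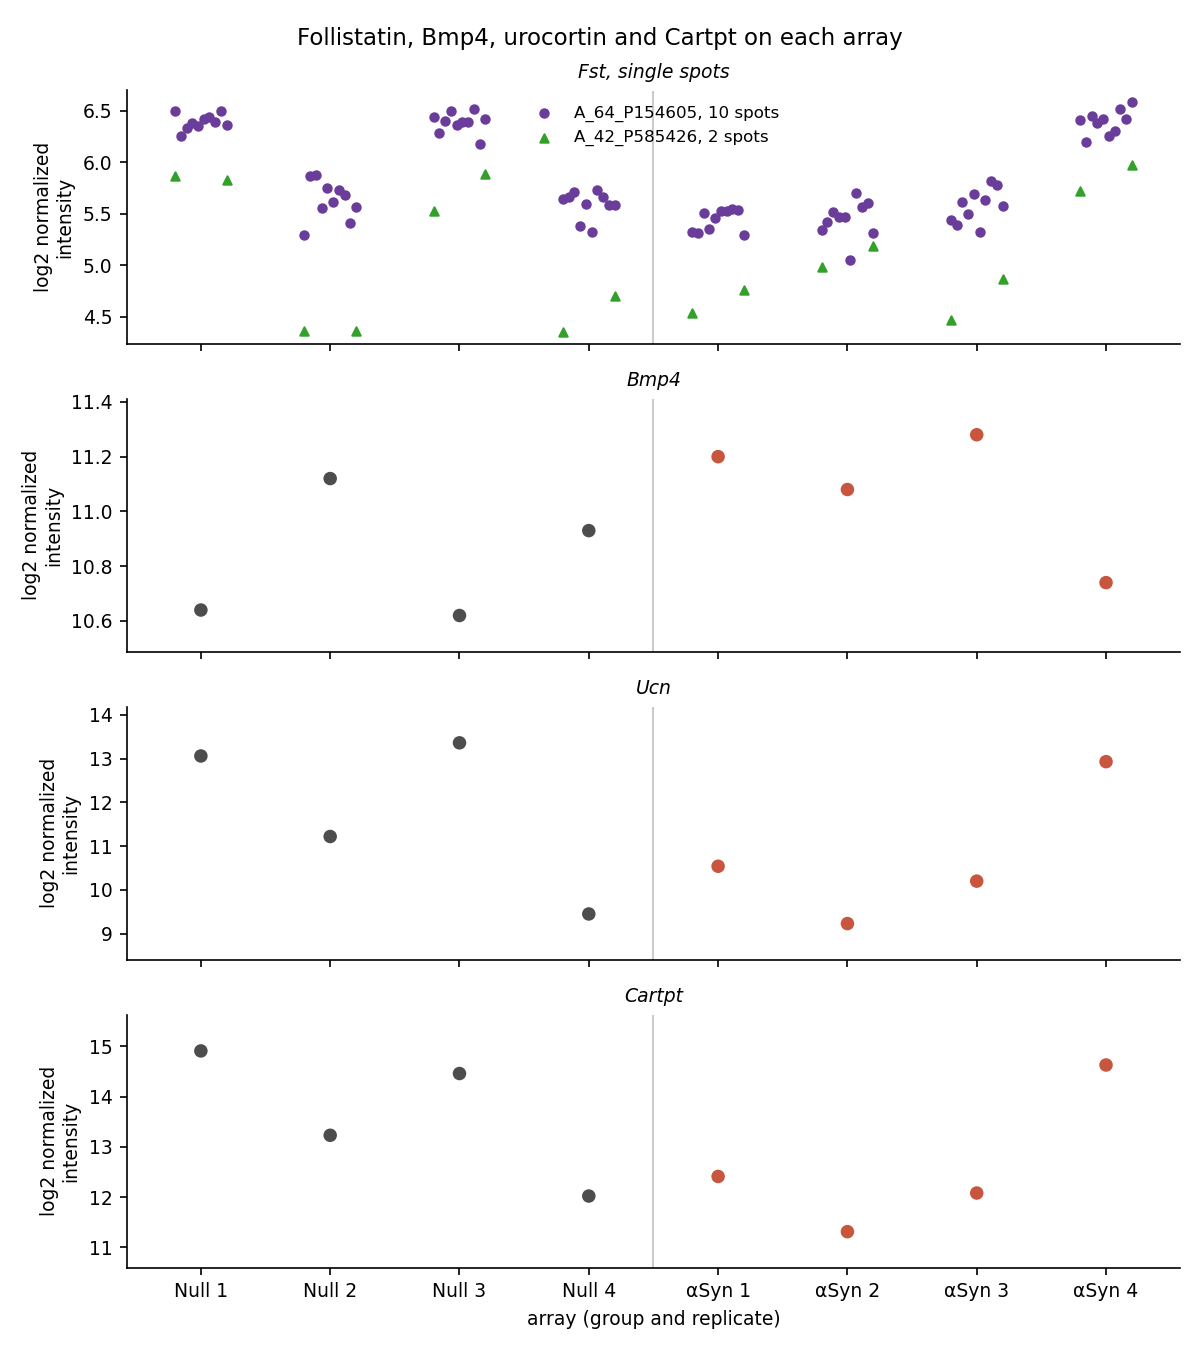
Log2 normalized intensity (vertical axes) on each of the 8 arrays (horizontal axis) for the single spots of both *Fst* probes, and for *Bmp4*, *Ucn* and *Cartpt* as 1 value per array, with AAV-Null left and AAV-αSyn right of the grey line. AAV-Null replicates 1 and 3 and AAV-αSyn replicate 4 are high in *Fst*, *Ucn* and *Cartpt* and low in *Bmp4*.

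The high *Bmp7* value of AAV-Null replicate 2 came with markers of meningeal and perivascular fibroblasts. The mean score of 7 such markers (*Col1a1*, *Col1a2*, *Col3a1*, *Dcn*, *Lum*, *Slc6a13* and *Aldh1a2*), each centred on its own mean over the arrays, was 0.09, 0.66, −0.33 and −0.24 on the AAV-Null arrays and 0.34, −0.35, −0.18 and 0.01 on the AAV-αSyn arrays. All 7 were above background on all 8 arrays, and their summed intensity ran from 1940 to 4210 in the AAV-Null group and from 1860 to 2920 in the AAV-αSyn group. The order of the arrays in this score was close to their order in *Bmp7*: r was 0.947 (exact permutation p = 0.00117, 0.129 after adjustment over 110 pairs of gene and marker list) and rho was 0.833 (exact permutation p = 0.0154, adjusted 0.767). Without AAV-Null replicate 2 and AAV-αSyn replicate 1, r was 0.718. For *Bmp6* r was 0.692 (exact permutation p = 0.0558) and 0.606 without AAV-Null replicates 1 and 2, and for *Bmp5* it was −0.696 (exact permutation p = 0.0527) and −0.276 without AAV-Null replicate 2 and AAV-αSyn replicate 4. *Slc22a6*, an organic anion transporter known from the leptomeninges, was the gene most like *Bmp7* (r = 0.968, chosen after the values were seen) and read 9.89 on AAV-Null replicate 2 against 7.64 to 8.45 elsewhere. No pair among the 110 passed the adjustment, and the part of these cells in the level of *Bmp7* was not tested.

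**Figure D4:**
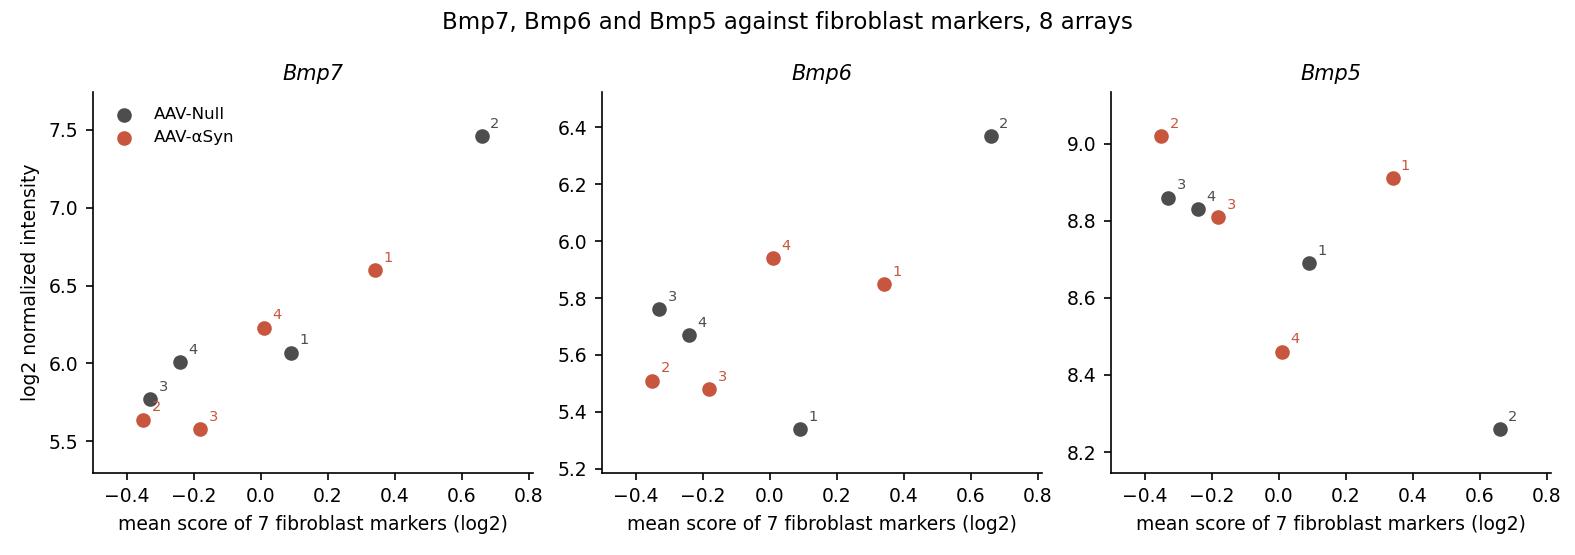
Log2 normalized intensity of *Bmp7*, *Bmp6* and *Bmp5* (vertical axes) against the mean log2 score of 7 fibroblast markers (horizontal axis) on the 8 arrays, numbered by replicate within the group. AAV-Null replicate 2 has the highest score, the highest *Bmp7* and *Bmp6* and the lowest *Bmp5*.

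Some markers of further cell types had an unadjusted limma p under 0.05 between the groups, 0 of them passed the adjustment, and the part of these cells in the values above was not tested. Of 7 DA neuron markers, 4 were lower in the AAV-αSyn group at this threshold, with scores of 0.03 to 0.49 on the AAV-Null and −0.38 to −0.06 on the AAV-αSyn arrays. Of 5 serotonergic markers, 2 were higher (scores −1.59 to 0.75 against 0.08 to 1.42), and of 4 thalamic markers 2 were lower (scores −0.27 to 1.26 against −1.51 to 0.04). Of 6 choroid plexus markers, 1 was lower (*Otx2*), and of 6 endothelial markers 1 was higher (*Kdr*, 0.27, with a limma p of 0.0185 before the adjustment), and the scores of both lists overlapped between the groups. *Chrd* was negatively related to the DA score (r = −0.718, exact permutation p = 0.0399, adjusted 0.877; rho = −0.81, exact permutation p = 0.0218), and r was −0.746 without AAV-Null replicate 3 and AAV-αSyn replicate 4. Marker scores of astrocytes, oligodendrocytes, their precursors and microglia overlapped between the groups, with 0 of 24 markers past an unadjusted p of 0.05.

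The rest of the pathway was counted from 6 lists of 72 genes, of which 65 had a named probe and 56 were tested by their brightest probe. At an unadjusted limma p under 0.05, 3 were higher and 0 lower in the AAV-αSyn group, which is 5.36% of the 56 against 5.51% of the brightest probes of all genes, and 0 passed the adjustment. The median log2 difference was 0.04. By role, 0 of 13 other BMP, GDF and activin ligands, 1 of 12 other antagonists, 1 of 5 processing proteases, 1 of 10 receptors and co-receptors, 0 of 9 SMADs and inhibitors and 0 of 7 BMP-SMAD target genes were higher. Among the targets, *Id1*, *Id2*, *Id3* and *Id4*, inhibitors of DNA-binding helix-loop-helix factors, had log2 differences of −0.10, −0.12, −0.05 and 0. The ligands *Bmp10*, *Gdf2*, *Gdf3*, *Inhbc*, *Inhbe* and *Nodal*, the antagonists *Cer1* and *Chrdl2* and the protease *Tll2* were above background on no array. The 3 genes higher were *Sostdc1*, *Tgfbr3* and *Pcsk5*, and each had groups that did not overlap, as did 4.2% of the brightest probes of all genes.

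*Sostdc1* (A_42_P575104), which encodes a secreted antagonist of BMP and WNT ligands also called ectodin, differed most. It read 5.74, 5.57, 5.01 and 6.37 on the AAV-Null arrays and 6.95, 7.04, 6.88 and 7.34 on the AAV-αSyn arrays. The groups did not overlap, and the two-sided exact permutation test gave 0.0286, which is the smallest p possible with 4 arrays per group. The means were 5.67 ± 0.562 (SD, n = 4) and 7.05 ± 0.205 (SD, n = 4), a fold of 2.6 with a 95% interval of 1.71 to 3.96. This is a log2 difference of 1.38 (SE 0.264), with a limma p of 0.000766 before and 0.484 after the adjustment over all probes, which it did not pass. It was 0.94 on 1 side of the slide and 1.82 on the other, and between 0.77 and 1.61 over 20 alternatives in processing or in the arrays used. *Sostdc1* is known from the choroid plexus, whose marker score ran from −0.43 to 0.21 in the AAV-Null group and from −0.57 to 0.84 in the AAV-αSyn group. Of the 6 markers, *Otx2* was lower in the AAV-αSyn group (−0.49, with a limma p of 0.00143 before and 0.555 after the adjustment), and the other 5 had log2 differences of 1.28 (*Ttr*), 0.11 (*Kl*), −0.01 (*Clic6*), −0.26 (*Folr1*) and −0.77 (*Kcnj13*), with an unadjusted limma p of 0.172 or more. *Ttr* was 12.33 on AAV-αSyn replicate 2 against 6.64 to 8.91 elsewhere, and *Kcnj13* was 6.85 on AAV-Null replicate 2 against 4.18 to 4.79 elsewhere, so each of these 2 values rests mostly on 1 array. The part of choroid plexus in the *Sostdc1* difference was not tested.

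*Tgfbr3* (A_64_P046313), the co-receptor betaglycan, read 3.91, 4.02, 4.02 and 3.81 on the AAV-Null arrays and 4.18, 4.41, 4.46 and 4.21 on the AAV-αSyn arrays. It differed by 0.37 on the log2 scale (SE 0.0945), with a limma p of 0.00404 before and 0.605 after the adjustment. With normexp background correction it was 0.10 with a limma p of 0.0926, and with an intensity trend and robust variances it was 0.37 with a limma p of 0.0641, so its call did not hold in either. *Pcsk5*, a proprotein convertase able to cleave precursors of the TGF-β family, read 9.31, 9.20, 9.22 and 9.27 on the AAV-Null arrays and 9.51, 9.37, 9.50 and 9.62 on the AAV-αSyn arrays at probe A_42_P553444. This log2 difference of 0.25 (SE 0.076) had a limma p of 0.011 before and 0.728 after the adjustment. Its other probe (A_44_P1088676) gave 0.01 (SE 0.193, 95% interval −0.43 to 0.46) with a limma p of 0.948. It did not pass the test, and its interval includes the value of the first probe.

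**Figure D5:**
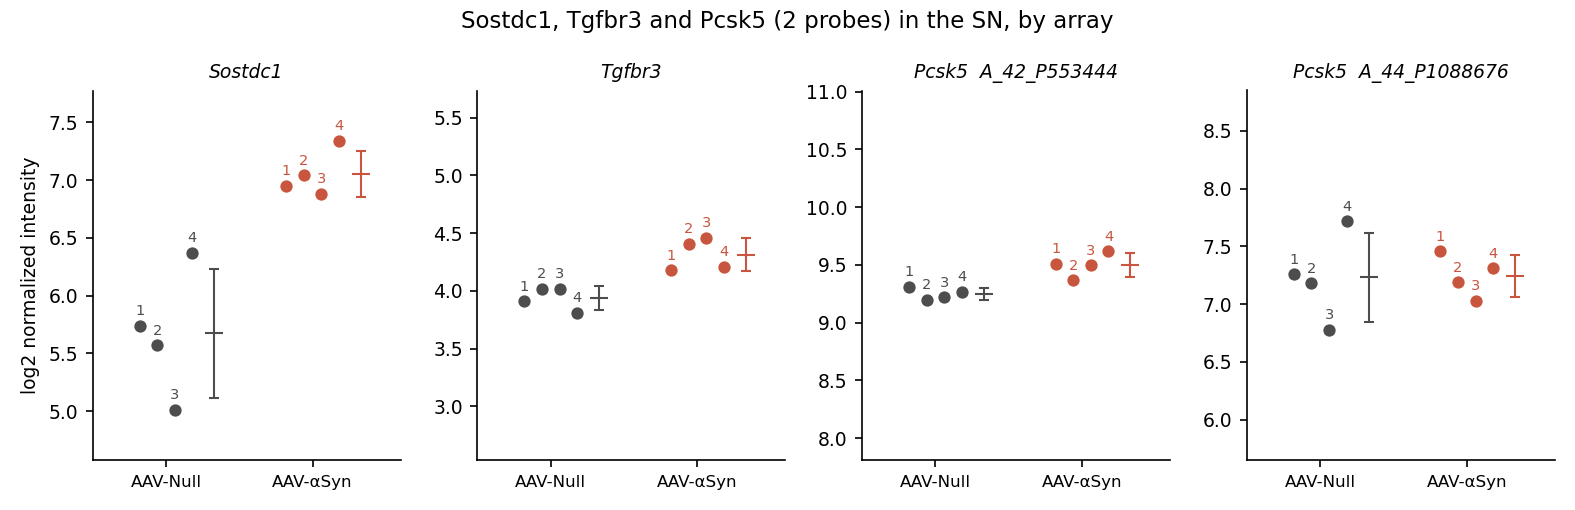
Log2 normalized intensity (vertical axis) of *Sostdc1*, *Tgfbr3* and both *Pcsk5* probes on the 4 AAV-Null and 4 AAV-αSyn arrays, with replicate numbers above the points and the mean ± SD beside each group; each panel spans the same log2 range. The groups are apart for *Sostdc1*, *Tgfbr3* and *Pcsk5* probe A_42_P553444 and overlap for *Pcsk5* probe A_44_P1088676.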

How the data were processed

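RNA of the ipsilateral SN was measured on 8 Agilent 1-colour rat arrays, 4 per group. The deposited scanner files give each spot's intensity after the background correction of Feature Extraction (version 12.0.3.2 per the file headers, 11.5.1.1 per the labels) with the software's calls per spot. The authors also deposited log2 values, quantile normalized with limma, which served as an alternative. The methods name fewer replicates per group than the 4 arrays analysed here.

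Processed intensities were taken to log2 with R 4.3.3 and limma 3.58.1, without control spots and outlier spots. Probes that were above background on 1 or more of the 8 arrays were tested, after quantile normalization and averaging over spots, with limma's lmFit and eBayes, two-sided, with Benjamini–Hochberg adjustment and a threshold of 0.05. Per array, 74.8% to 77.5% of spots were well above background, 268 to 418 were marked as outliers and 0 were saturated, and the number of arrays limits the precision. Group differences were permuted over the 70 possible splits and correlations over 40320 orderings of the arrays.

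Symbols came from a RefSeq table of GRCr8, which named 21229 of 45598 probes; *Bmp8b*, *Gdf1*, *Gdf5*, *Dand5*, *Kcp*, *Vwc2l* and *Rgmb* have no probe that it names. A gene is represented by its brightest probe. Named genes are the 10 genes, pathway genes with an unadjusted p under 0.05 or groups that do not overlap, and the 3 genes most like the ligand and the antagonist with the smallest p; those most like *Fst* and *Bmp7* were added after seeing the data. The genes and lists were chosen with earlier results of these data known. Alternatives were other normalizations, background correction by normexp with an offset of 50, filters, variance models, blocks, the deposited matrix and leaving out each array. Tested on simulated data for this comparison with 33853 probes, the procedure recovered 73 of 100 probes with a log2 change of 1 and 93 of 100 with a change of 2, with 7 false calls over both. The simulation held far more changed probes than the 5 that passed in the real data, which eases the Benjamini–Hochberg adjustment. These rates therefore do not say how often such a change would be called on the real arrays.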

Additional observations from a re-analysis of the deposited data

Results flagged for a closer look

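In 6 of 82 groups of 4 arrays, 1 array stood apart from the other 3 by a gap above the 95% critical value of Dixon's test, which chance alone exceeds in about 1 of 20 groups. Among the 24 groups of the tested probes of the 10 genes there was 1: *Fst* probe A_64_P154605 in the AAV-αSyn group, where replicate 4 was at 6.39 against 5.44 to 5.58 and the gap was 0.855 of the range. The same array stood apart, on the low side, for 2 of the 3 genes most like *Bmp4*: *Nusap1* (5.21 against 5.49 to 5.55, 0.841 of the range) and *Shc1* (9.26 against 9.77 to 9.79, 0.969 of the range). AAV-Null replicate 2 stood apart for 2 of the 3 genes most like *Bmp7*: *Slc22a6* (9.89 against 7.64 to 7.96, 0.856 of the range) and *Chic2* (8.97 against 8.83 to 8.85, 0.865 of the range). These 4 genes were picked for following *Bmp4* or *Bmp7*, so they are not independent cases. The score of hypothalamic neuron markers was 0.77 on AAV-Null replicate 4 against −0.16 to −0.09 on the other AAV-Null arrays (0.922 of the range). The markers did not all move together there: *Pmch* was 14.32 on that array against 8.66 to 9.81 on the other 7. *Hcrt* (7.42) was also at its highest of the 8 arrays, and *Agrp* (6.73) at its highest of the AAV-Null arrays. In contrast, *Avp* (9), *Oxt* (4.86) and *Pomc* (9.67) were at their lowest of the 8 arrays.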

How the results depend on the processing

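Under the 12 processing alternatives and the 8 comparisons with 1 array left out, 0 of the member probes had an adjusted p under 0.05. At an unadjusted p, the count of 0 became 2 with array quality weights (*Bmp7* at −1.06 with a limma p of 0.0282 and 0.309 after adjustment, *Grem1* at −0.24 with 0.0349 and 0.331), where 13.6% of all probes tested were called, and 1 with the side of the slide as a block, where 5.16% were called (*Bmp4* at 0.25 with a limma p of 0.04 and 0.958 after adjustment), and with 1 array left out it lay between 0 and 2, with 4.27% to 8.28% of all probes called in these comparisons. The count of member probes whose groups do not overlap lay between 0 and 1 with 1 array left out. The share over all probes was not computed for these comparisons. Fewer arrays are apart more easily, so this count cannot be read against the 3.83% of the full comparison. The weights also moved *Bmp4* to 0.09, *Bmp5* to 0.35, *Bmp6* to −0.40, *Nog* to 0.21, *Chrd* to 0.26 and *Fst* to −0.08. With normexp, *Bmp6* was 0, *Bmp7* −0.18, *Nog* 0.07, *Grem1* −0.10, *Fst* −0.13 and *Sostdc1* 0.77. The count of 3 pathway genes became 12 of 56 with array quality weights, against 13.3% of the brightest probes of all genes in that comparison, and with 1 array left out it lay between 3 and 6, with 5 without AAV-Null replicate 1, 5 without AAV-Null replicate 3 and 6 without AAV-Null replicate 4, where 5.99%, 8.18% and 7.85% of the brightest probes of all genes were called. The direction turned for *Bmp6* (0.11) and *Bmp7* (0.06) without AAV-Null replicate 2 and for *Bmp2* (0.03) without AAV-αSyn replicate 1; the cause was not tested. With 1 array left out, the log2 difference of *Bmp2* lay between −0.13 and 0.03, that of *Bmp6* between −0.24 and 0.11 and that of *Bmp7* between −0.52 and 0.06. The alternatives for *Sostdc1*, *Tgfbr3* and *Pcsk5* were chosen after seeing the data, and *Sostdc1* and *Pcsk5* kept their direction and an unadjusted p under 0.05 in 20 of 20. The deviations of samples with the same replicate number correlated between −0.00217 and 0.267, and those with different numbers between −0.277 and 0.255. These ranges overlap and the labels state no pairs, so the numbers were not taken to pair the samples. The replicate number is also the row of the slide for all 8 arrays. With the replicate number as a block, 0 member probes had an unadjusted p under 0.05, against 6.55% of all probes tested. In that fit 4 of the 56 pathway genes did, against 6.07% of the brightest probes of all genes. Intensities near background limit the *Tgfbr3* values, since the lowest signal well above background was between 2.93 and 3.62 on the log2 scale.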
